A study of Mus musculus with 9 samples.

Results

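The Notch pathway was described through 8 genes, which were found by their symbols among the 24411 genes of the expression table. They were 3 receptors (Notch1, Notch2 and Notch4), 2 ligands (Dll1 and Jag1), the DNA-binding factor Rbpj, and 2 target genes (Hes1 and Hey1). The genes were measured by RNA-seq in 9 lines of self-renewing mouse macrophages, with 1 library per line. Of these, 3 YS lines were grown from yolk sac (E9.5), 3 FL lines from fetal liver (E14.5) and 3 BM lines from adult bone marrow, all of C57BL/6 mice, with no genetic change named in the labels and with recombinant human M-CSF in the medium throughout. Each line was a bulk culture from its own dish or well, and the starting cells of an origin were pooled from 2 or more mice. Lines of an origin may therefore share starting cells, and the p-values below measure only the spread among these lines. The question was how far lines of different origin differed in the level of these genes.

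Notch receptors are cleaved when they bind a Delta or Jagged ligand on a neighboring cell. The freed intracellular domain enters the nucleus, joins Rbpj and Mastermind-like coactivators on DNA, and switches on target genes such as those of the Hes and Hey families. Without it, Rbpj recruits corepressors and keeps the same targets low. The pathway is needed for blood stem cells to form in the embryo, and Notch2 guides the fate of some monocytes and dendritic cells.

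Levels are given as TPM, transcript counts divided by transcript length and scaled to the same total in each library, so levels of different genes can be set side by side. The table keeps no read depth, so precision was judged only from how much the 3 lines of each origin varied. All 10 macrophage markers were detected in every line, among them Csf1r, which encodes the M-CSF receptor. The summed TPM of these markers was 6482 to 12000 in YS lines, 13830 to 31410 in FL lines and 15210 to 16610 in BM lines. Lyz2, which encodes lysozyme, was a large part of these sums. It was at 1163.15 to 3531.31 TPM over YS lines, 5806.07 to 21976.14 TPM over FL lines and 5986.16 to 7841.48 TPM over BM lines. Single markers did not all follow the sums. Fcgr1 was at 122.16 to 329.94 TPM over YS lines, 110.13 to 171.94 TPM over FL lines and 1.68 to 42.1 TPM over BM lines. YS line 1 was the least like its group, with Pearson's r of 0.942 and 0.912 over the tested genes to YS lines 2 and 3, against 0.960 between those lines. BM line 2 had 53 genes at 5 TPM or more that were under 0.5 TPM in both other BM lines, while the other 8 lines had between 5 and 36 such genes.

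Among receptors, Notch2 was the main transcript in every line and Notch1 was the one that set FL lines apart. Notch1 had levels of 1.24, 2.55 and 3.40 TPM over YS lines 1 to 3, 12.55, 13.94 and 9.42 TPM over FL lines, and 3.70, 4.72 and 3.80 TPM over BM lines. All FL lines lay above all BM lines, and all BM lines lay above all YS lines. The group levels were 2.40 ± 1.09, 12.0 ± 2.32 and 4.07 ± 0.562 TPM (SD, n = 3 lines each). Notch1 was thus higher in FL than in BM lines by 1.34 on the log2(TPM + 1) scale (SE 0.27, limma adjusted p = 0.00975), which is 2.54-fold on that scale. It was lower in YS than in FL lines, with a log2 difference of -1.97 (SE 0.27, limma adjusted p = 0.0128). The difference between YS and BM lines, -0.63 (95% interval -1.23 to -0.02), did not pass (limma adjusted p = 0.111).

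Notch2 had levels of 16.94, 25.51 and 24.56 TPM over YS lines, 32.24, 27.03 and 27.62 TPM over FL lines, and 31.40, 26.82 and 33.39 TPM over BM lines. The YS lines were the lowest 3 of the 9, and FL and BM lines overlapped. None of its differences reached 2-fold. The largest was -0.45 on the log2 scale between YS and BM lines (95% interval -0.84 to -0.06, limma adjusted p = 0.0833), and the difference between FL and BM lines was -0.07 (95% interval -0.47 to 0.32).

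Notch4, a receptor best known from blood vessel endothelium, ranged from 0.06 to 0.24 TPM over YS lines and from 0.16 to 0.26 TPM over FL lines. In BM lines 1 to 3 it was at 0.97, 6.28 and 0.60 TPM. The BM lines lay above all others, but only BM line 2 was above 1 TPM, and Notch4 did not pass the filter of 1 TPM in at least 3 libraries. In a fit without the filter, the log2 difference was -1.30 between YS and BM lines (limma adjusted p = 0.113) and -1.24 between FL and BM lines (limma adjusted p = 0.161). BM line 2 is the line with the many transcripts that the other BM lines lack, and the part of this in its Notch4 level was not tested.

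The makeup of the receptor transcripts followed from these levels. Notch2 made up 87.1% to 92.9% of the summed receptor TPM in YS lines, 65.6% to 74.3% in FL lines and 70.8% to 88.4% in BM lines. Notch1 made up 25.3% to 33.8% in FL lines, against 6.80% to 12.1% in YS lines and 10.1% to 12.5% in BM lines. Notch4 reached 16.6% in BM line 2. Notch3, the fourth receptor of the mouse and no member of the set, had 0.07 TPM in BM line 2 and was listed at 0 elsewhere.

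**Figure D1:**
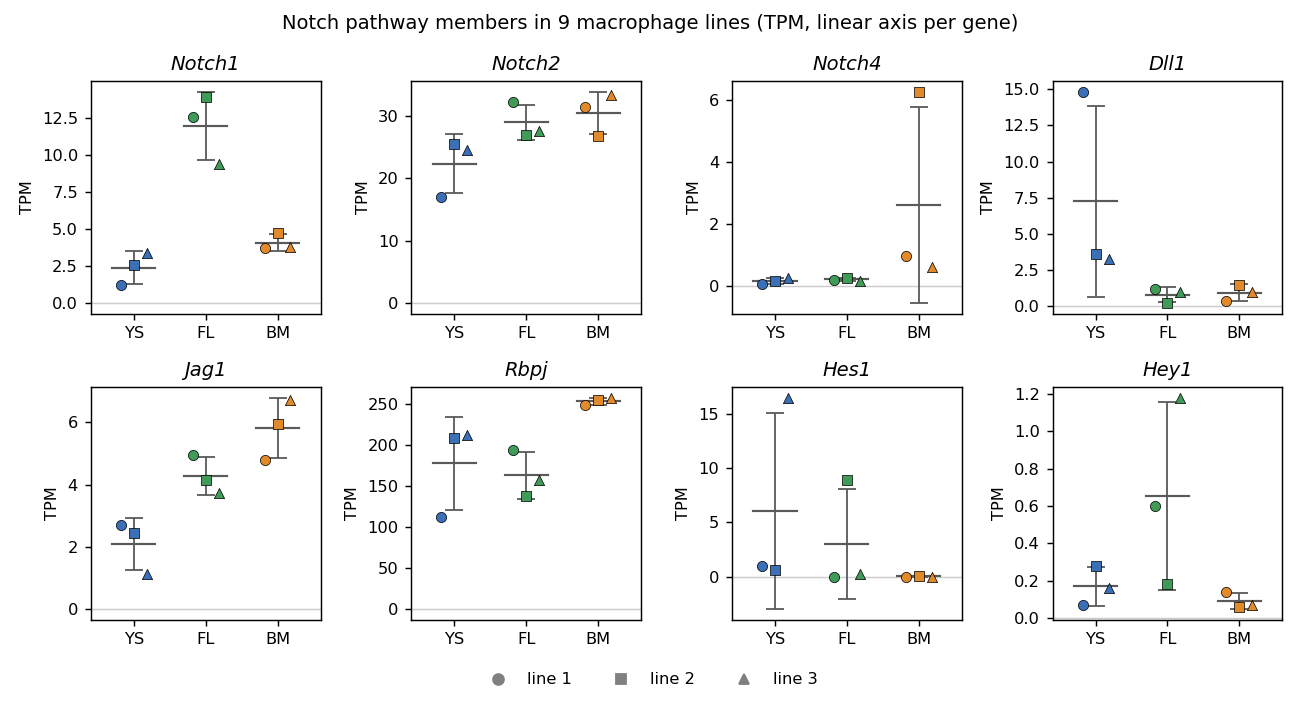
TPM of the 8 genes in each line (points, 1 per line, with the shape giving the line number) for YS, FL and BM lines, on a linear axis of its own for each gene; horizontal bars are the mean and the SD of 3 lines. Notch1 is at 9.42 TPM or more in each FL line and at 4.72 TPM or less elsewhere, and single lines stand high for Notch4 (BM line 2), Dll1 (YS line 1) and Hes1 (YS line 3 and FL line 2).

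The ligands differed between origins in opposite directions. Dll1 had levels of 14.83, 3.64 and 3.28 TPM over YS lines, 1.18, 0.23 and 1.02 TPM over FL lines, and 0.35, 1.5 and 1.00 TPM over BM lines. All YS lines were above all others, YS line 1 far above the rest, and FL and BM lines overlapped. Dll1 was higher in YS than in BM lines by 1.85 on the log2 scale (SE 0.51, limma adjusted p = 0.0299) and higher than in FL lines by 1.95 (SE 0.51, limma adjusted p = 0.065). The difference between FL and BM lines was -0.11 (95% interval -1.28 to 1.06).

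The Dll1 results rest partly on single lines. Without YS line 1, its log2 difference from BM lines was 1.24 (limma adjusted p = 0.0391) and that from FL lines 1.34 (limma adjusted p = 0.0788), so both were still called. The call between YS and BM lines was lost without BM line 1 (limma adjusted p = 0.108). The call between YS and FL lines was lost without FL line 2 or 3 or any 1 BM line, and when the BM lines were left out of the fit (limma adjusted p = 0.185).

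Jag1 had levels of 2.7, 2.45 and 1.14 TPM over YS lines, 4.95, 4.16 and 3.72 TPM over FL lines, and 4.78, 5.96 and 6.71 TPM over BM lines. All YS lines were below all others, and FL and BM lines overlapped by 1 line each. Jag1 was lower in YS than in BM lines, with a log2 difference of -1.17 (SE 0.25, limma adjusted p = 0.0111), or 2.25-fold on that scale. The difference between YS and FL lines, -0.80, passed the false discovery rate of 0.1 (limma adjusted p = 0.0913) but was under 2-fold on that scale. With a pseudocount of 0.1 TPM it was -1.07 and was called (limma adjusted p = 0.099). Without YS line 3, the lowest line, the difference between YS and BM lines was -0.92, under 2-fold on the log2(TPM + 1) scale as well.

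Jag2, a Jagged ligand outside the set of 8 genes, was the most abundant ligand in 7 of the 9 lines, and Jag1 was in FL lines 1 and 2. Jag2 had levels of 31.44, 21.02 and 6.66 TPM over YS lines, 2.91, 3.37 and 5.84 TPM over FL lines, and 10.25, 9.93 and 10.12 TPM over BM lines. YS lines spread across the BM level, and all FL lines lay below both. Jag2 was called higher in YS than in FL lines (log2 difference 1.85, limma adjusted p = 0.0608), a call that held in 9 of 18 alternative settings.

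As shares of summed ligand TPM, Jag1 was 5.48% to 10.3% in YS lines, 35.2% to 54.8% in FL lines and 31.0% to 37.4% in BM lines. Dll1 was 13.3% to 30.1% in YS lines, 2.92% to 13.1% in FL lines and 2.27% to 8.61% in BM lines. The Jag1 share did not overlap between YS lines and the others, and neither did that of Dll1. The summed ligand level was 11.1 to 49.3 TPM in YS lines, 7.87 to 10.6 TPM in FL lines and 15.4 to 17.9 TPM in BM lines. Dll4, the ligand of arteries and thymic epithelium, was at 0.17 TPM or less in every line.

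**Figure D2:**
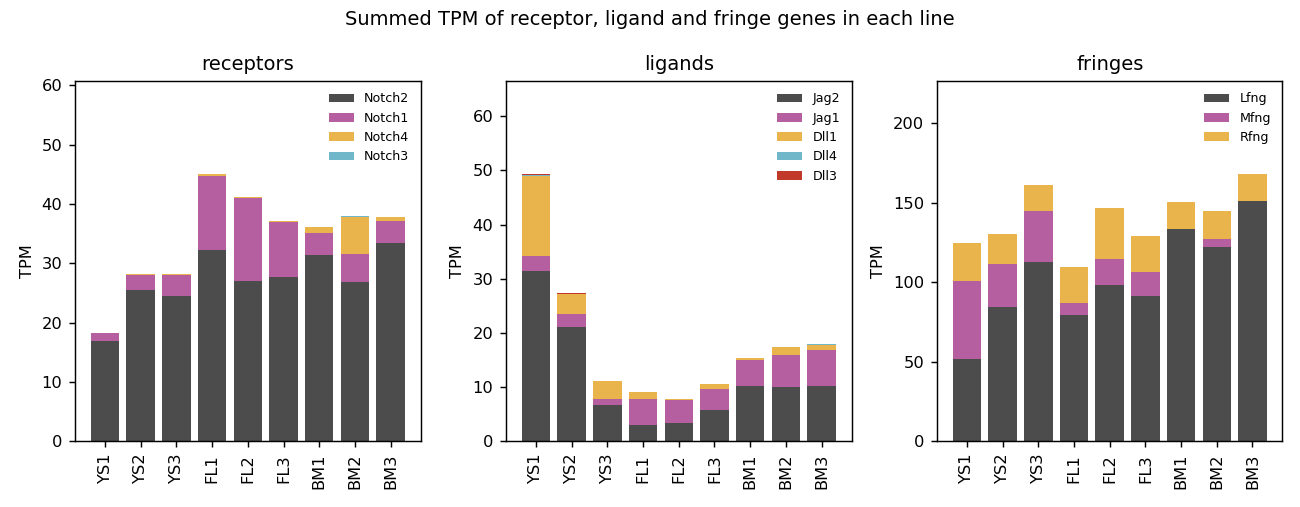
Summed TPM of the receptor, ligand and fringe genes in each of the 9 lines, with bars stacked by gene from 0. Notch2 fills most of each receptor bar with a Notch1 part of 25.3% or more in FL lines, Jag2 and Dll1 make the tall ligand bars of YS lines 1 and 2, and Mfng is seen in the fringe bars of YS and FL lines but makes up at most 3.32% in BM lines.

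Rbpj was the most abundant of the 8 genes. It had levels of 112.54, 209.21 and 212.46 TPM over YS lines, 194.97, 138.39 and 157.33 TPM over FL lines, and 249.51, 254.93 and 257.66 TPM over BM lines. The 3 BM lines were close to each other and above all YS and FL lines, and YS line 1 was the lowest. The log2 difference was -0.57 between YS and BM lines (limma adjusted p = 0.108) and -0.65 between FL and BM lines (limma adjusted p = 0.0937). The latter passed the false discovery rate but, at 1.57-fold, not the fold threshold. Between YS and FL lines the difference was 0.08 (95% interval -0.47 to 0.62).

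The promoters of the members were read from RefSeq windows (GRCm38.p6, 250 bases before to 50 after the start, 300 bases). A window was held for 6 of the 8 genes, with 8 windows in all. The target genes Hes1 and Hey1 had none, so their promoters were not searched. The 8 windows were searched for TGGGAA, the core letters that Rbpj binds, and for its reverse complement TTCCCA. Only the 2 windows of Rbpj itself, which overlap, held it, while 25.6% of all 32851 windows did. The first Rbpj window held it at 2 places, starting 149 and 65 bases before the start, as 3.80% of all windows did at 2 or more. The windows of Notch1, Notch2, Notch4, Dll1 and Jag1 did not hold these letters. A match is a description of the letters and no evidence of binding. The window of Rbpj (chr5:53590096-53590395, plus strand) is shown for these matches, in capitals, and that of Notch1 (chr2:26503773-26504072, minus strand, 68.3% G and C) as the gene that set FL lines apart:
Rbpj: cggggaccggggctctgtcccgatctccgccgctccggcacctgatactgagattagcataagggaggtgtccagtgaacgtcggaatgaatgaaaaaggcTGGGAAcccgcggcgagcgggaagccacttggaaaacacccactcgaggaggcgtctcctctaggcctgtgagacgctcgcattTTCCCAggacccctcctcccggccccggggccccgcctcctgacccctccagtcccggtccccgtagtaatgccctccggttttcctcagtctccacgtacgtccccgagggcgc
Notch1: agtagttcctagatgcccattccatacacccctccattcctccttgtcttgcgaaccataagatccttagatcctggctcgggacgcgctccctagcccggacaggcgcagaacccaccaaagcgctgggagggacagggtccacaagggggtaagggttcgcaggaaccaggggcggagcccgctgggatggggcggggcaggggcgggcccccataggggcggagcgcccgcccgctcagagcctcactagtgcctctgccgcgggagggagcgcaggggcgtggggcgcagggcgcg

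Hes1, a repressor that Notch switches on in many tissues, was seen in single lines rather than in a group. It was at 1.01, 0.64 and 16.50 TPM in YS lines, listed at 0, then at 8.89 and 0.22 TPM in FL lines, and in BM lines listed at 0, at 0.10 TPM and at 0. YS line 3 and FL line 2 were high and the other lines of those groups were at 1.01 TPM or less. All YS lines lay above all BM lines. The log2 difference of 1.90 between YS and BM lines was nevertheless not called, with a 95% interval of -0.49 to 4.30 (limma adjusted p = 0.205). YS line 3 and FL line 2 were also the highest lines of their groups for Notch1 and the lowest for Dll1. Across groups, FL lines 1 and 3 had more Notch1 (12.55 and 9.42 TPM) than YS line 3 (3.40 TPM) but Hes1 at 0.22 TPM or less. A link between these genes was not tested.

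Hey1, the other target gene, was at 0.07 to 0.28 TPM in YS lines, at 0.18 to 1.18 TPM in FL lines and at 0.06 to 0.14 TPM in BM lines. FL lines were above BM lines without overlap, but FL line 3 alone passed 1 TPM, so Hey1 did not pass the filter. Without the filter, the log2 difference between FL and BM lines was 0.56 (limma adjusted p = 0.115).

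In all, 6 of the 8 genes were tested, and 3 of them were called in at least 1 comparison. A gene was called at a false discovery rate under 0.1, over all 11753 genes tested, and a change of more than 2-fold. Between YS and BM lines, 2 of 6 were called, Dll1 higher and Jag1 lower, where 12.8% of all tested genes were called (7.57% higher and 5.22% lower). Between FL and BM lines, only Notch1 was called, higher, where 10.3% of all genes were called (6.01% higher and 4.30% lower). Between YS and FL lines, Dll1 was called higher and Notch1 lower, where 3.79% of all genes were called (1.95% higher and 1.85% lower). No test of these counts against the background was made.

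The groups did not overlap for 6 of the 6 tested genes between YS and BM lines, against 49% of all tested genes. The same held for 2 of 6 between FL and BM lines (49.5% of all genes) and for 4 of 6 between YS and FL lines (26.1% of all genes). The median log2 difference of the 6 genes was -0.51, -0.09 and -0.15 in the 3 comparisons, beside 0.11, 0.09 and 0.02 over all genes. The 3 comparisons share lines pairwise, so they are not independent of each other. An exact two-sided permutation test gives p = 0.1 for any gene whose groups do not overlap, and this is the smallest p that 3 lines against 3 allow.

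**Figure D3:**
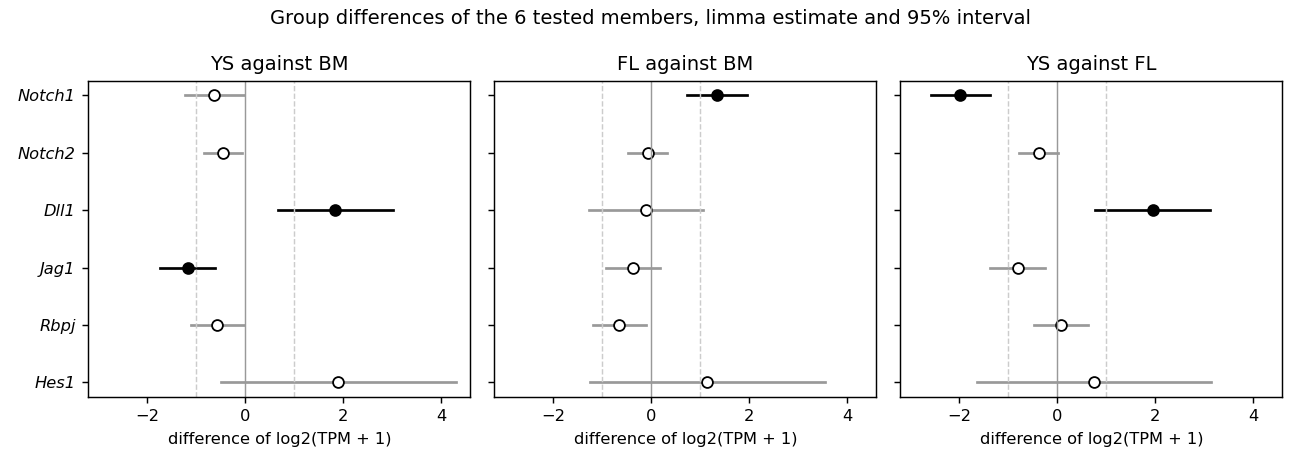
Differences of log2(TPM + 1) between groups for the 6 tested genes, as limma estimates (circles) with 95% intervals (lines), in 3 panels for the 3 comparisons; filled circles are called genes, and dashed lines mark 2-fold. Only Dll1 and Jag1 are filled for YS against BM lines, Notch1 for FL against BM lines, and Dll1 and Notch1 for YS against FL lines, and the intervals of Hes1 are the widest.

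Other cell types that carry Notch genes were looked for through their markers. Of 12 endothelial markers, 3 (Emcn, Sox17 and Robo4) were listed at 0 in every line and 7 in all were under 1 TPM everywhere, with Erg at 0.05 TPM or less and Cdh5 at 1.38 TPM or less. The summed level of the 12 was 32.3 to 76.3 TPM in YS lines, 19.6 to 52.0 TPM in FL lines and 0.22 to 3.76 TPM in BM lines. In YS lines it was made up mainly of Kdr, Tie1, Pecam1 and Egfl7. In FL lines Kdr alone was the main part, at 17.37, 17.47 and 50.36 TPM. In YS line 1, the line with the most Dll1, Tie1 was the highest of the YS lines (25.82 TPM) and Kdr and Cdh5 were the lowest (0.29 and 0.14 TPM). The part of these transcripts in the levels of Dll1 and Notch1 was not tested. In bulk samples such as these, fewer cells of a type and less RNA per cell cannot be told apart.

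Of the other marker lists, the 7 erythroid and megakaryocyte markers summed to 237 to 2126 TPM in YS lines, 617 to 1733 TPM in FL lines and 38.8 to 394 TPM in BM lines, nearly all of it Pf4, with Hbb-bs listed at 0 throughout. The 6 mast cell and progenitor markers summed to 1.47 to 16.2, 1.2 to 18.4 and at most 0.38 TPM, nearly all of it Cd34. The 9 lymphocyte markers, led by Il7r, summed to 4.10 to 29.9, 0.14 to 48.7 and 5.38 to 7.31 TPM, with Cd3e listed at 0 in every line. For stroma (10 markers) the sums were at most 4.34 TPM, for dendritic cells (6 markers) at most 8.40 TPM, and for epithelium and hepatoblasts (8 markers) at most 20.6 TPM, of which Afp was the main part. The part of these transcripts in the results was not tested.

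Around the 8 genes, 75 further genes of the pathway were examined, from receptor processing to corepressors. Of these, 57 were tested, 18 did not pass the filter, and 4 (Hes3, Hes5, Heyl and Rbpjl) were listed at 0 in all lines. Between YS and BM lines, 8 were called higher and 2 lower, or 17.5%, with a median log2 difference of 0.23. Between FL and BM lines, 6 were called higher and 0 lower, or 10.5%, with a median of 0.16. At an unadjusted p under 0.05, 9 of the 57 were lower and 17 higher in FL than in BM lines by limma, the only tool used, where 12.8% of all genes were lower and 20.8% higher. Between YS and FL lines, 3 were called higher and 1 lower, or 7.02%, with a median of 0.08. Without YS line 3, 18 were called between YS and BM lines (13.1% of all genes), and without FL line 2 or FL line 3, 1 was called between YS and FL lines (1.5% and 1.53% of all genes). With quantile normalization, which moves the median difference of all genes in the first comparison from 0.11 to -0.01 and the share of higher among all called genes from 59.2% to 48.7%, the splits of higher and lower were 7 and 3, 5 and 2, and 2 and 2. In the main fit, the share called was near that of all genes between FL and BM lines (10.5% and 10.3%). It was above that of all genes between YS and BM lines (17.5% and 12.8%) and between YS and FL lines (7.02% and 3.79%).

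Of 13 genes of receptor maturation and ligand ubiquitination, all tested, 3 were called higher in YS than in BM lines, 1 in FL than in BM lines and 2 in YS than in FL lines. Of all tested genes, 7.57%, 6.01% and 1.95% were called higher in these comparisons. Mfng, a fringe that adds a sugar to Notch receptors and so changes which ligands they answer to, had levels of 49.00, 27.44 and 31.78 TPM over YS lines, 7.94, 16.18 and 14.97 TPM over FL lines, and 0.16, 4.80 and 0 TPM over BM lines. The 3 groups did not overlap, and of the BM lines only line 2 was above 0.16 TPM. Mfng was called higher than in BM lines in both YS (log2 difference 4.25, limma adjusted p = 0.00322) and FL lines (2.84, limma adjusted p = 0.0147), in all 18 alternative settings. Without BM line 2, these differences were 5.06 and 3.65. Its difference between YS and FL lines, 1.42, was not called (limma adjusted p = 0.195).

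Lfng, the most abundant fringe, was at 51.64 to 112.99 TPM in YS lines, 79.14 to 98.17 TPM in FL lines and 122.14 to 151.11 TPM in BM lines, and was not called. Its log2 difference was -0.77 between YS and BM lines (limma adjusted p = 0.0503), less than 2-fold. Mfng thus made up 19.8% to 39.4% of summed fringe TPM in YS lines, 7.23% to 11.6% in FL lines and at most 3.32% in BM lines.

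The neuralized family, of which only some members are known to act on Notch ligands, was represented by 4 tested genes. Of these, Neurl3 and Neurl1a were called higher in YS lines. Neurl3 had levels of 23.88, 33.10 and 62.08 TPM over YS lines, 9.81, 6.93 and 6.37 TPM over FL lines, and 8.94, 8.69 and 2.03 TPM over BM lines. All YS lines lay above all others, by 2.51 on the log2 scale over BM lines (limma adjusted p = 0.00895) and by 2.13 over FL lines (limma adjusted p = 0.0508). The latter call was lost without FL line 2 or FL line 3. Neurl1a, with 4.56, 3.23 and 1.29 TPM over YS lines, 1.48 TPM in FL line 3 and 0.53 TPM or less elsewhere, was called higher in YS than in BM lines (log2 difference 1.69, limma adjusted p = 0.024). That call was lost with a pseudocount of 4 TPM, and Neurl1a does not pass the filter of 5 TPM. It passed the filter of 1 TPM in 3 libraries only through the YS lines, the group where it was high. The Neurl1a call between YS and FL lines (1.40, limma adjusted p = 0.0972) held in 3 of 17 alternative settings. Neurl1b lay the other way, with 7.70, 9.85 and 10.50 TPM over YS lines against 20.90, 17.70 and 18.90 TPM over BM lines. At 1.96-fold on the log2(TPM + 1) scale it was not called (log2 difference -0.97, limma adjusted p = 0.0191).

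The proteases that cut the receptor comprise the Adam10 and Adam17 enzymes and the gamma-secretase complex. All 9 genes were tested and 0 were called in any comparison by limma, while 3, 2 and 1 had an unadjusted p under 0.05 in the comparisons of YS with BM, FL with BM and YS with FL lines. Of all genes, 41.2%, 33.6% and 25.7% had such a p, and 12.8%, 10.3% and 3.79% were called. The 1 of the last comparison was Aph1b (log2 difference -1.92, limma adjusted p = 0.104). Psenen, the most abundant, was at 204.65 to 217.45 TPM in YS lines, 199.67 to 248.00 TPM in FL lines and 244.38 to 286.20 TPM in BM lines. Its log2 differences lay between -0.33 and -0.10.

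Of 10 tested genes of receptor turnover and inhibition, the same 3 were called higher than in BM lines in both YS and FL lines. Of all tested genes, 7.57% were called higher in YS and 6.01% in FL than in BM lines. Bend6, a partner of Rbpj that limits Notch signaling in neural cells, had levels of 5.21, 9.83 and 9.54 TPM over YS lines, 10.74, 10.92 and 10.95 TPM over FL lines, and 1.24, 2.52 and 0.98 TPM over BM lines. All BM lines lay below all others, by 1.83 (limma adjusted p = 0.00366) and 2.25 (limma adjusted p = 0.00153) on the log2 scale. Dtx3l, a deltex-family ubiquitin ligase, was higher by 1.56 in YS lines (limma adjusted p = 0.00758) and by 1.12 in FL lines (limma adjusted p = 0.0294). The latter call was lost without FL line 1 or BM line 3, and with a pseudocount of 4 TPM. Cbl, a ubiquitin ligase that also turns over the M-CSF receptor, was higher by 1.09 (limma adjusted p = 0.0118) and 1.02 (limma adjusted p = 0.0169). Both Cbl calls were lost, at under 2-fold, with quantile or median-of-ratios scaling. The first was also lost without YS line 1. The second was also lost without FL line 1 or BM line 2, and with a pseudocount of 4 TPM. Numb, a membrane-associated inhibitor and the most abundant of the class that was not called, was at 86.27 TPM in YS line 1 and at 29.18 to 44.78 TPM in the other 8 lines.

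Of the 8 coactivators and DNA-binding factors and 15 corepressors tested, which meet at Rbpj, Maml2 and Tle3 were called higher in both YS and FL than in BM lines. Over all tested genes, 7.57% and 6.01% were called higher in these comparisons. Maml2, a Mastermind-like coactivator, had levels of 12.16, 10.49 and 24.52 TPM over YS lines, 17.76, 16.81 and 11.23 TPM over FL lines, and 1.92, 2.96 and 1.39 TPM over BM lines. Its log2 difference from BM lines was 2.38 in YS lines (limma adjusted p = 0.00291) and 2.40 in FL lines (limma adjusted p = 0.00228). Tle3, a corepressor of the Groucho family with which Hes proteins work, had levels of 62.65, 40.28 and 35.79 TPM over YS lines, 42.85, 34.86 and 48.15 TPM over FL lines, and 5.31, 11.79 and 7.31 TPM over BM lines. The differences were 2.39 (limma adjusted p = 0.00182) and 2.28 (limma adjusted p = 0.0016). All BM lines lay below all others for both genes, in which YS and FL lines overlapped, and these calls held in all 18 alternative settings.

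The Groucho genes Tle5 and Tle2 differed the other way. Tle5, a short member of the family that lacks its repressor repeats and is listed under the older symbol Aes, had levels of 177.63, 165.21 and 219.08 TPM over YS lines, 402.35, 495.16 and 529.69 TPM over FL lines, and 387.49, 389.86 and 464.63 TPM over BM lines. All YS lines were below all others, by -1.15 against BM lines (limma adjusted p = 0.00233) and -1.34 against FL lines (limma adjusted p = 0.00621), in all 18 alternative settings. Tle2 was lower in YS than in BM lines at 0.84, 1.06 and 1.14 TPM against 4.85, 2.6 and 3.59 TPM (log2 difference -1.19, limma adjusted p = 0.0136). The Tle2 call was lost with a pseudocount of 4 TPM. Ctbp1 and Snw1, the most abundant corepressor and coactivator not called, had log2 differences of 0.37 and 0.60 between YS and BM lines, under 2-fold.

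**Figure D4:**
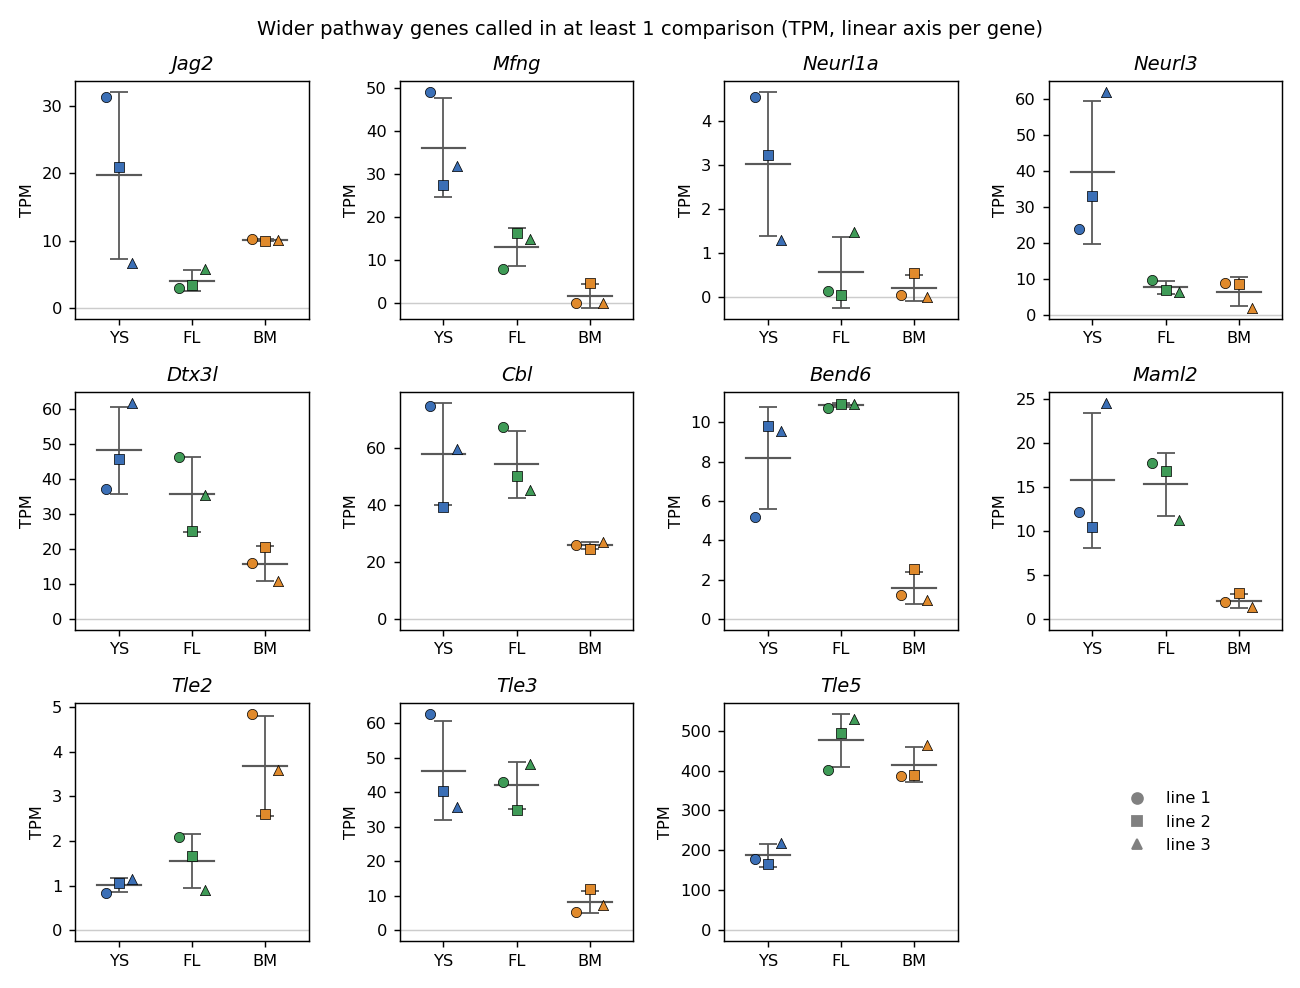
TPM of the 11 further pathway genes called in at least 1 comparison, for each line (points) of the YS, FL and BM groups, with a linear axis of its own per gene and bars for the mean and the SD of 3 lines. Mfng, Bend6, Maml2 and Tle3 are lowest in BM lines, Neurl3 is highest in YS lines, and Tle5 is at 219.08 TPM or less in YS lines and at 387.49 TPM or more elsewhere.

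Beyond Hes1 and Hey1, the Hes and Hey genes were mostly silent. Hes6, which opposes Hes1 in nerve precursors, was the only 1 of 8 to be tested and lay at 16.63 to 24.11 TPM in all 9 lines, with log2 differences between -0.16 and -0.03. Hes2, Hey2 and Helt were at 0.10 TPM or less and Hes7 at 1.10 TPM or less. Nrarp, a feedback inhibitor that Notch switches on in many tissues, was at 0.05 to 0.78 TPM. Dner, the most abundant ligand not tested, reached 1.58 TPM in FL line 3.

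For the 3 called genes, the genes of most similar pattern were taken from the 11752 other tested genes by Pearson's r of log2(TPM + 1) over the 9 libraries, which share their origin groups. For Notch1 they were Setd4 (r = 0.970) and Itgb3bp (r = 0.964), for Dll1 Xpo4 (r = 0.988) and Cyc1 (r = 0.987), and for Jag1 Pla2g12a (r = 0.975) and B230354K17Rik (r = 0.966). Cyc1, a subunit of respiratory complex III, was highest in YS line 1 at 367.98 TPM, like Dll1, and lay between 167.59 and 270.31 TPM in the others. Setd4 was at 3.13 to 3.99 TPM in FL lines and at 2.41 TPM or less in the others, like Notch1 on a lower level. Pla2g12a was lowest in YS line 3 (7.05 TPM) and highest in BM line 3 (30.65 TPM), as Jag1 was.

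Some of these levels carry uncertainty from the annotation. In GENCODE M21, the genes Notch1, Notch4, Dll1 and Rbpj overlap a gene on the other strand (for example A930024N18Rik for Dll1). On the same strand, Notch2 overlaps Gm42819 and Gm42820, and Notch1 overlaps Mir6996. Rbpj has the named pseudogenes Rbpj-ps1 and Rbpj-ps3. The libraries were strand-specific, but the strand setting of the authors' counting and the annotation they used are not given in the sources used here, so reads shared with these partners cannot be told apart from the gene's own.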

How the data were processed

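RNA was measured in 9 macrophage lines, and groups and line numbers came from the sample labels. The authors made poly(A)-selected strand-specific libraries and deposited TPM per gene symbol, to 2 decimals. The submitters' processing notes name Trim Galore 0.6.6, STAR 2.7.9a and RSEM 1.3.3; the genome build and annotation are not given in the sources used here. TPM keeps no depth, so no counting error is given.

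From these values log2(TPM + 1) was computed, which understates the fold of low genes. Genes that reached 1 TPM in 3 or more of the 9 libraries, 11753 in all, were fitted with limma 3.58.1 in R 4.3.3 (1 model of all libraries, intensity trend, Benjamini-Hochberg adjustment per comparison). A call needed a false discovery rate below 0.1 together with a change above 2-fold, the study's thresholds. Tested on simulated data for YS against BM lines with 11753 genes, of which 200 were changed 4-fold, the fit called 94.5% of them, and 5.5% of its calls were unchanged genes. The 200 were drawn only from genes above a set mean level, which Dll1, Jag1 and Hes1 do not reach. The share called therefore does not describe genes as low as these.

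The members and lists were chosen with earlier results of these data known. Genes named were the 8 members, the 75 further pathway genes where called, the most abundant gene not called of each class, and the 2 genes nearest in pattern to each called member. Other genes named, such as Aph1b, Neurl1b, Nrarp and Dll4, were chosen after their values were seen. Alternatives changed the pseudocount (0.1 or 4 TPM), the filter (none or 5 TPM), the scaling, the variance trend, the libraries fitted, the fold threshold, a replicate block and each line left out.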

Additional observations from a re-analysis of the deposited data

How the results depend on the processing

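Without depth, the precision of low genes such as Hey1 and Notch4 is unknown, and 3 lines per group limit every test. The number of members called between YS and BM lines, 2, became 1 with a pseudocount of 4 TPM and 0 with the filter of 5 TPM, which Dll1, Jag1 and Hes1 do not pass, and was 1 to 2 with each line left out (1 without YS line 3 or BM line 1). Between FL and BM lines, the count of 1 became 0 with a pseudocount of 4 TPM (Notch1 at 0.98) and 2 with no fold threshold, and stayed at 1 with each line left out. Between YS and FL lines, the count of 2 became 1 with the filter of 5 TPM and 1 with only the 6 libraries compared, and was 1 to 2 with each line left out (1 without FL line 2, FL line 3 or any 1 BM line).

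Of the further pathway genes, 29 were called between YS and BM lines and 19 between FL and BM lines with no fold threshold, where 37.9% and 27.6% of all genes were called. With only the 6 libraries compared, 2 were called between YS and FL lines, where 0.689% of all genes were. With each line left out, the counts were 9 to 18 (18 without YS line 3), 5 to 9 and 1 to 6 (for YS against FL lines 1 without FL line 2 or 3, and 2 without YS line 2, FL line 1, BM line 1 or BM line 3). Their split of higher and lower calls was 7 and 3, 5 and 2, and 2 and 2 in the 3 comparisons with quantile normalization, and 7 and 3, 5 and 1, and 3 and 1 with median-of-ratios scaling. Over all genes, these scalings moved the median difference between YS and BM lines from 0.11 to -0.01 and 0.00, and the share of higher among called genes from 59.2% to 48.7% and 50.9%. The split of the members was 1 and 1, 1 and 0, and 1 and 1 under both.

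Small differences changed sign without 1 line. That of Dll1 between FL and BM lines was 0.15 without FL line 2 and 0.10 without BM line 2 (-0.35 to 0.15 with each line left out), and that of Rbpj between YS and FL lines was -0.066 without YS line 2, -0.077 without YS line 3 and -0.03 without FL line 2 (-0.077 to 0.38 with each line left out). None of these was called. Of the values of single members under the alternatives, 290 kept their direction and their side of the thresholds, 10 lost a call, 1 gained a call and 5 changed sign. The call gained was that of Jag1 between YS and FL lines, with a pseudocount of 0.1 TPM. Jag1 between YS and BM lines fell under 2-fold with a pseudocount of 4 TPM (-0.69). The call of Notch1 between YS and FL lines held in all of them. Without YS line 1, YS line 3 or FL line 2 Hes1 did not pass the filter.

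The line numbers did not pair the lines. Deviations of same-numbered lines from their group means correlated at -0.12 to 0.09 (9 pairs, median 0.003), those of differently numbered lines at -0.14 to 0.12. With the number as a replicate block, 2, 1 and 2 members and 10, 6 and 3 further genes were called in the 3 comparisons, with no change in a member's call.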

Other observations

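Hes1 was high in YS line 3 (16.50 TPM) and FL line 2 (8.89 TPM) only, so the genes nearest to it in pattern were looked up after these values were seen. Over the 9 libraries they were Zbtb24 (r = 0.958), C030006K11Rik (r = 0.926) and Cltc (r = 0.924), by Pearson's r of log2(TPM + 1). Zbtb24 was at 13.10 TPM in YS line 3 and 12.22 TPM in FL line 2, and at 9.42 to 10.17 TPM in the other 7 lines. Cltc, the clathrin heavy chain, was at 411.02 and 461.03 TPM in those lines and at 280.40 to 349.08 TPM in the others. The line numbers do not connect these lines, and neither held the highest Notch2, Jag1 or Rbpj of its group, apart from YS line 3 for Rbpj.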
